A study of Homo sapiens with 6 samples.

Results

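A list of 43 genes, 32 of epithelial junctions and identity and 11 of mesenchymal cells, was followed here in colorectal cancer cells depleted of BZW2, a protein related to eIF5 of translation initiation. Epithelial cells are held together by adherens junctions built on E-cadherin, by tight junctions sealed by claudins and occludin, and by desmosomes anchored to keratin filaments. Mesenchymal cells instead make matrix proteins and filaments such as fibronectin and vimentin. Transcription factors of the ZEB and SNAI families can shut epithelial genes by binding E-box motifs in their promoters, while GRHL2, OVOL1 and the splicing factors ESRP1 and ESRP2 hold the epithelial programme.

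The list was set by gene name, with earlier results of these data known. A member was measured where its Ensembl identifier had 1 row in the deposited table of 13021 such genes. Of the 43 members, 36 had a row, 29 of them epithelial and 7 mesenchymal. CLDN1, CLDN2, KRT20, SNAI2, TGFBI, SPARC and CDH2 were not analysed here. All 29 epithelial members were listed in each of the 3 cell lines, but only FN1, AXL and THBS1 of the mesenchymal members were. VIM had values in SW480 alone and was blank in HCT116 and HT29. ZEB1 and CAV1 were blank in HT29, and TNC was blank in HCT116. The listed genes of a line had at least 21 reads summed over its 2 libraries, so a blank is read here as a gene under that level, not as a measured 0.

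The study used HCT116, HT29 and SW480, established human colorectal cancer lines, each infected with a lentivirus that expressed either a non-targeting short hairpin RNA (shRNA; control) or an shRNA against BZW2 (knockdown). All 6 cultures were stable populations selected with puromycin at 1 µg/ml, and the titles of both HCT116 samples read HCT116WT. Total RNA was sequenced in bulk, with 1 library per line and treatment, so a group held 3 libraries and no line had a repeat. In bulk RNA, fewer cells of a type and less RNA per cell cannot be told apart. BZW2 in the knockdown libraries was at 17.6% of its control level for HCT116 (95% counting interval 11.7 to 25.6), 8.69% for HT29 (7.22 to 10.4) and 13.5% for SW480 (10.5 to 17.2).

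The libraries stood apart in ways that touch the results below. The shallowest library was the HCT116 knockdown, with 2187373 reads over listed genes, and the deepest the HT29 control, with 9317444. The control libraries labelled HCT116 and SW480 were very alike, with 1.92% of the 10356 genes at 5 or more CPM (reads scaled to library size) in either library at least 2-fold apart, against 29.6% between the HCT116 and HT29 controls and 28.8% between the HT29 and SW480 controls. Their spread in genes with at least 500 reads in both was 0.30 on the log2 scale (SD), above the 0.07 that counting alone gives, so they were 2 different libraries. Whether the cells of these labels were distinct lines was not tested, and the 3 lines may therefore be fewer than 3 independent replicates. The HCT116 knockdown library differed from its own control by at least 2-fold in 55.6% of genes, against 9.49% in HT29 and 11.2% in SW480. In the HCT116 pair the ratio was also higher in transcripts of higher GC content (Spearman rho 0.66 across genes, which are not independent replicates, against 0.31 in HT29 and -0.06 in SW480), and the histone genes had a median log2 ratio of 5.37 there, against 1.45 and 1.15. Line names below are those of the labels, and the estimates over the 3 lines given for single members are also given without HCT116.

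**Figure D1:**
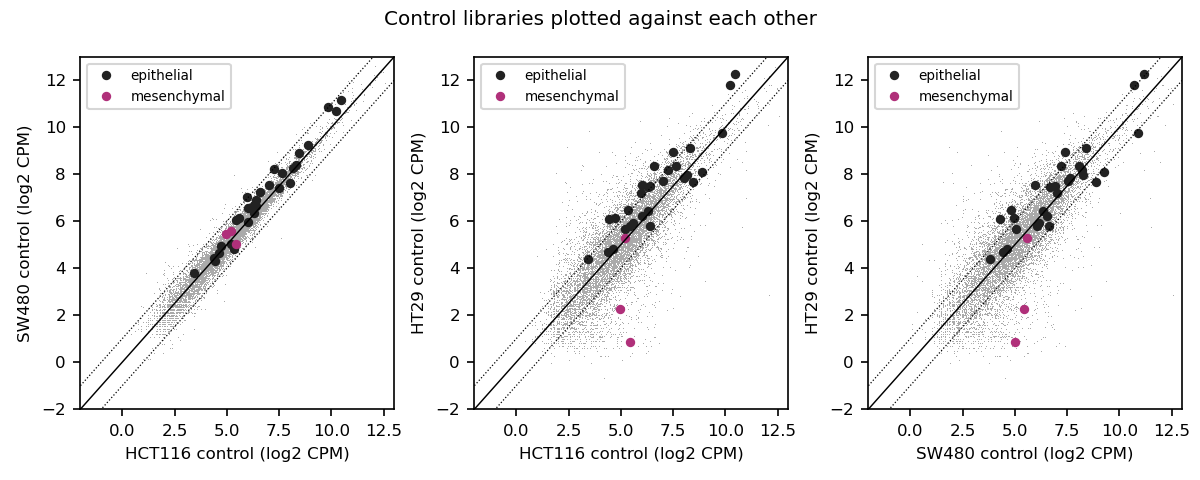
Log2 CPM of each gene listed in all 3 lines, for pairs of control libraries; black points are epithelial and pink points mesenchymal members, the solid line marks equal levels and the dotted lines 2-fold differences. The HCT116 and SW480 controls lie along the line of equal levels, with 2 of the 32 members at least 2-fold apart, while HT29 differs from each of them by at least 2-fold in 13 of the 32.

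The labelled tissue could be checked against its markers only in part. Of 6 colon epithelium markers (VIL1, CDX1, CDX2, CDH17, LGALS4, PHGR1) only CDX2 had values, at 2.15 RPKM (reads scaled to transcript length and library size) in the HCT116 control, 1.07 in HT29 and 2.31 in SW480. Of 8 fibroblast markers only COL1A1 did, at 0.27 RPKM in HCT116 and 0.74 in SW480 and blank in HT29. Of 3 smooth muscle markers DES did, at 1.87 RPKM in HCT116 and 3.41 in SW480. None of the 4 endothelial or 5 leukocyte markers had a row.

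Because ZEB and SNAI proteins recognise the E-box cores CAGGTG and CACCTG, which are each other's reverse complement, promoters were searched for both. RefSeq promoter entries (GRCh38.p14) matched 28 of the 43 members, some by more than 1 start site. These were 18 of the 32 epithelial and 10 of the 11 mesenchymal members. CDH1, EPCAM, ESRP1, GRHL2 and PARD6B were among the members without an entry, so their promoters were not searched. In the 250 bases before the start, 11 of 27 windows of epithelial members held at least 1 such core (40.7%), as did 3 of 20 windows of mesenchymal members (15%) and 17.5% of all 35116 promoter windows. CRB3 had 5 cores and CLDN7 had 4, and JUP, DSP and DSG2 had 2 each. The stretches of 30 bases with the most cores are shown 5′ to 3′ on the strand of the gene, with the cores in capitals. They are given for these 5 genes, the searched epithelial members with more than 1 core in a single window. They lie at chr19:6464041-6464070 (CRB3, plus strand), chr17:7262479-7262508 (CLDN7, minus strand), chr17:41786008-41786037 (JUP, minus strand), chr6:7541481-7541510 (DSP, plus strand) and chr18:31497933-31497962 (DSG2, plus strand).
CRB3: tgCAGGTGtaaggtccccctcaCACCTGcg
CLDN7: tacatatactCAGGTGcgcccCACCTGtcc
JUP: ctggcccCACCTGccgagCAGGTGagcgca
DSP: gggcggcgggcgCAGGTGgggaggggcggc
DSG2: acgtcacggtccCAGGTGcgagtgcgagcg
A matching core describes the letters only, and binding was not measured. Of the genes with the most cores, CRB3 reached 99.96%, 96.2% and 78.8% of its control level in HCT116, HT29 and SW480. CLDN7 reached 110.0%, 86.3% and 29.4%. With a trend over GC content and length removed, the log2 ratio in HCT116 was -1.11 for CRB3 and -1.05 for CLDN7.

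Levels in the control libraries placed the epithelial members far above the mesenchymal ones. Levels are in RPKM, which divides by the length of the longest transcript and so allows genes to be set side by side. The median epithelial member stood at 18.1, 41.3 and 26.8 RPKM in the HCT116, HT29 and SW480 controls. The median listed mesenchymal member stood at 4.60 in HCT116 (5 genes), 0.37 in HT29 (4 genes) and 5.67 in SW480 (7 genes), and the median of all listed genes lay between 8.15 and 9.03. Keratins led the list. KRT8, a type II keratin of simple epithelia, reached 487, 1756 and 811 RPKM in the HCT116, HT29 and SW480 controls, and its partner KRT18 reached 573, 1704 and 804. KRT8 and KRT18 overlap on opposite strands of chromosome 12, and whether counting used strand is not given in the sources used here; reads of the overlap may have been shared.

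HT29 carried the most of several surface and junction genes. CDH1, which encodes E-cadherin, stood at 100.2 RPKM in the HT29 control, against 37.2 in HCT116 and 34.8 in SW480. CLDN3, a sealing claudin, stood at 54.2 in HT29 against 16.9 and 15.03. CLDN12, a claudin of intestinal tight junctions, stood at 51.6 against 17.9 and 17.2. ST14, the membrane protease matriptase, stood at 92.7 against 26.9 and 42.3. GRHL2, a transcription factor that activates CDH1 and claudin genes, stood at 17.0 against 7.78 and 5.26. For these 5 genes the HT29 control lay above the other 2 controls. Not every member followed: the desmosomal genes DSP (20.7 RPKM in HT29, 35.8 in HCT116, 49.0 in SW480) and DSG2 (46.7, 79.7 and 104.7) were lowest in HT29. KRT19 was also lowest there at 617 RPKM, close to 652 in HCT116 and below 1366 in SW480.

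Mesenchymal members had the reverse order. AXL, a receptor tyrosine kinase, stood at 0.27 RPKM in the HT29 control and at 8.997 and 6.79 in the HCT116 and SW480 controls. FN1, the matrix protein fibronectin, stood at 0.47 in HT29 against 3.39 and 4.68. CAV1, which builds caveolae, was blank in HT29 and was the highest mesenchymal member elsewhere, at 39.0 RPKM in HCT116 and 78.9 in SW480. ZEB1, a repressor of epithelial genes, was blank in HT29 and stood at 1.71 and 1.89. THBS1, the matrix glycoprotein thrombospondin 1, broke the pattern with 4.60, 4.94 and 6.16 RPKM in HCT116, HT29 and SW480. VIM, the filament protein vimentin, stood at 5.67 in SW480, its only line with values. TNC, the matrix protein tenascin C, stood at 0.21 in HT29 and 0.70 in SW480.

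Differences between lines were tested in limma on log2 CPM of both libraries of each line, with treatment as a term, so that each line had 2 libraries that also differ in treatment. Between HT29 and HCT116, 2.65% of 10875 genes were higher and 2.46% lower in HT29 at a Benjamini-Hochberg adjusted p under 0.05. Among the 32 members listed in all lines, CLDN3 was higher in HT29 by 2.35 ± 0.55 (log2, SE, limma adjusted p = 0.0449) and AXL was lower by -5.41 ± 0.57 (adjusted p = 0.0032). Between SW480 and HT29, 2.38% of genes were higher and 1.51% lower in SW480. There AXL was higher by 4.68 ± 0.57 (adjusted p = 0.0046) and FN1 by 2.68 ± 0.60 (0.044), and CLDN3 was lower by -2.42 ± 0.55 (0.0466) and CDH1 by -1.95 ± 0.44 (0.0469). Between SW480 and HCT116, 0% of genes were called in either direction, and 0 members. The AXL calls held without each library in turn, whereas CLDN3 was not called against HCT116 without either HT29 library. Between SW480 and HT29, CDH1, CLDN3 and FN1 were no longer called when any single library of the 4 from those lines was left out. Without the HCT116 knockdown library 8 of the 32 members were higher and 2 lower in HT29 than in HCT116, where 9.14% of all genes were higher and 8.97% lower. The 8 were CDH1, CLDN3, CLDN12, DSC2, ELF3, ESRP2, GRHL2 and ST14. Without the HCT116 control library the contrasts with HCT116 rest on its knockdown library alone, and 4 members were then higher and 12 lower in SW480 than in HCT116, where 26.9% of all genes were higher and 24.1% lower.

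**Figure D2:**
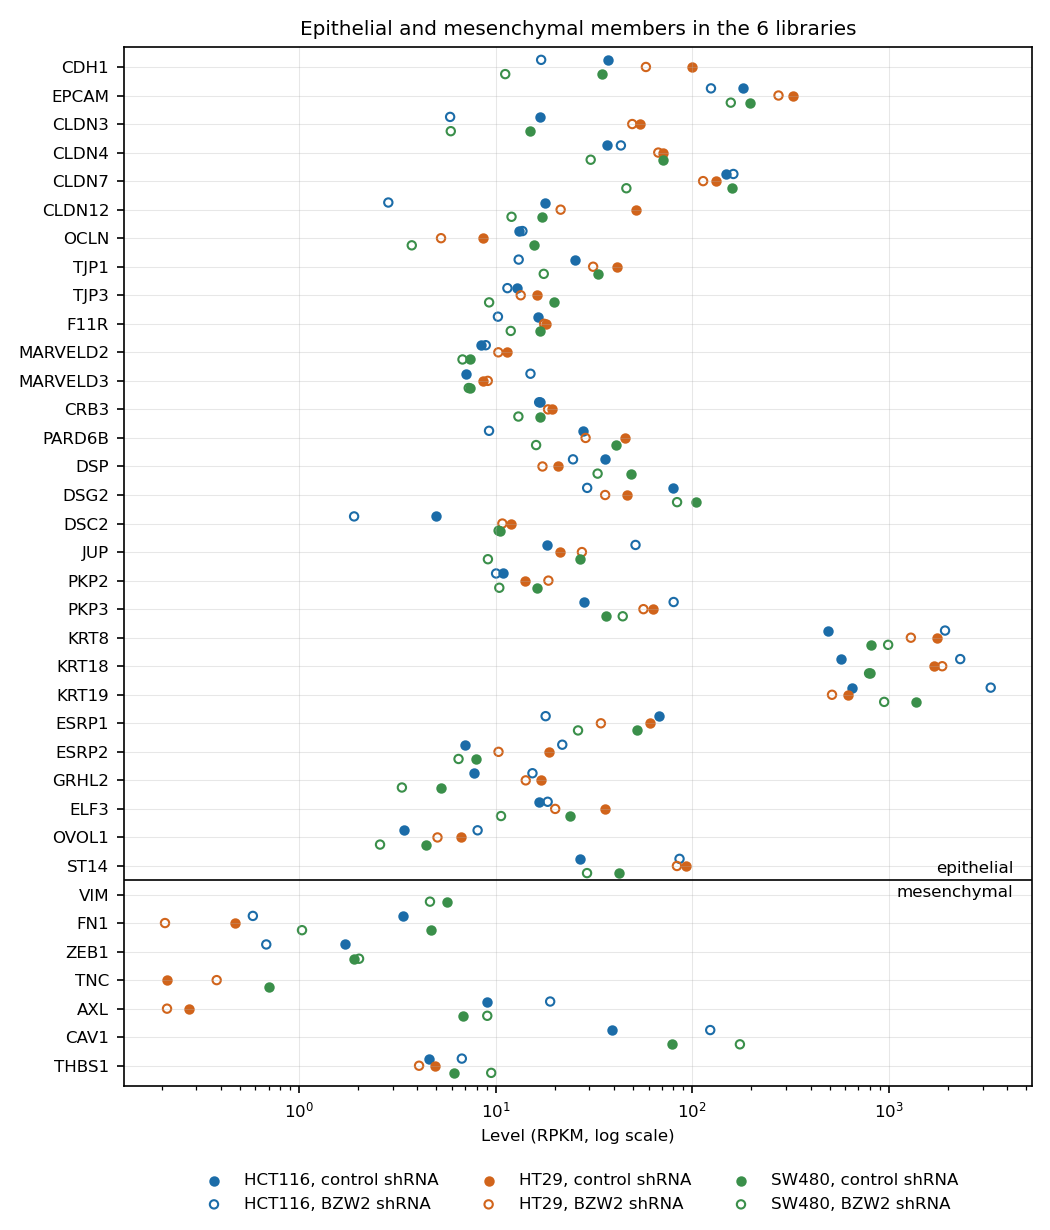
Level in RPKM (log scale) of each of the 36 members with a row; colours mark the line, filled points the control and open points the BZW2 shRNA library, and a blank or a level of 0 (TNC in the SW480 knockdown) has no point. Epithelial members lie mostly above the mesenchymal ones, and AXL and FN1 are lowest in HT29.

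No member passed the test of knockdown against control over the 3 lines. In limma on log2 of the deposited value plus 1, with line as a block, 0% of 10875 genes were called lower and 0% higher. The smallest adjusted p was 0.155, while 766 genes were lower and 717 higher at an unadjusted p under 0.05. edgeR also called 0 genes, with 1287 at an unadjusted p under 0.05, and DESeq2 called 134 lower and 110 higher. The 5 members at an unadjusted p under 0.05, all with negative estimates, were FN1, ESRP1, CDH1, PARD6B and CLDN12. They are described next, with their value in every library. Libraries within a line are compared as knockdown percent of control with a 95% interval (exact Clopper-Pearson, counting error only), since 1 library per treatment allows no test.

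FN1 had the largest estimate of the 32 members. It stood at 3.39 RPKM in the control and 0.58 in the knockdown of HCT116, at 0.47 and 0.21 in HT29 and at 4.68 and 1.04 in SW480. The knockdown library was the lower of the pair in all 3 lines, at 17.4% of control (8.21 to 32.7), 44.1% (23.5 to 79.6) and 22.5% (16.8 to 29.9). HT29 had only 40 and 17 reads, and the HCT116 knockdown had 10 against 185 in its control. Control and knockdown groups overlapped, because the HT29 control lay below the HCT116 and SW480 knockdowns. The estimate was -1.87 ± 0.49 (log2, SE, n = 3 lines, limma adjusted p = 0.27). Without HCT116 it was -1.60 with an adjusted p of 0.0445, and DESeq2 on all lines gave -1.97 with an adjusted p of 0.0194. The limma estimate was -2.26 without HT29 (adjusted p = 0.36) and -1.76 without SW480 (adjusted p = 0.35). Over all alternatives FN1 kept a negative estimate.

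CDH1 was lower under BZW2 shRNA in each line. Its levels were 37.2 RPKM in the control and 17.0 in the knockdown of HCT116, 100.2 and 58.1 in HT29 and 34.8 and 11.2 in SW480. The percent of control was 46.4 (38.9 to 54.9), 58.1 (55.3 to 61.0) and 32.7 (28.9 to 37.0). Control and knockdown groups overlap, because the HT29 knockdown lies above the other 2 controls. The estimate was -1.13 ± 0.36 (n = 3 lines, limma adjusted p = 0.31), and without HCT116 it was -1.17 with an adjusted p of 0.0431. EPCAM, another adhesion molecule on the list, stood at 69.4%, 85.1% and 81.7% of control.

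ESRP1, which directs epithelial splice forms, stood at 67.6 RPKM in the control and 17.9 in the knockdown of HCT116, at 61.1 and 34.3 in HT29 and at 52.2 and 26.2 in SW480. All 3 knockdown libraries lay below all 3 controls. The percent of control was 26.9 (22.3 to 32.2), 56.3 (52.4 to 60.5) and 51.1 (46.3 to 56.4), and the estimate -1.19 ± 0.38 (n = 3 lines, limma adjusted p = 0.31), or -0.87 without HCT116 (adjusted p = 0.088). PARD6B, a subunit of the apical polarity complex, stood at 27.7 and 9.25 RPKM in HCT116, at 45.3 and 28.7 in HT29 and at 40.9 and 16.1 in SW480. Its estimate was -1.14 ± 0.37 (limma adjusted p = 0.31), or -0.96 without HCT116 (adjusted p = 0.076), and the HT29 knockdown overlapped the HCT116 control. With a trend over GC content and length removed, the PARD6B estimate was -0.65 (limma adjusted p = 0.26). Its log2 ratio in HCT116 was then -0.29 instead of -1.55. CLDN12 stood at 17.9 and 2.84 RPKM in HCT116, at 51.6 and 21.4 in HT29 and at 17.2 and 12.0 in SW480. With 41.5% of control (38.0 to 45.4) it was the only epithelial member at least 2-fold lower in HT29, and its estimate was -1.42 ± 0.46 (limma adjusted p = 0.31), or -0.85 without HCT116 (adjusted p = 0.12).

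Counted over the epithelial members, lower knockdown levels prevailed in HT29 and SW480 and not in HCT116. The members were chosen with earlier results of these data known, so the shares below describe the list and are not a test. In HT29, 25 of 29 were lower (86.2%, against 49.6% of all listed genes), with a median log2 ratio of -0.25 against 0.0061 for all genes. In SW480, 24 of 29 were lower (82.8%, against 50.7% of all), with a median of -0.54 against -0.01. In HCT116, 14 of 29 were lower (48.3%, against 51.8% of all), and the median was 0.07 against -0.08. Both HT29 and SW480 had a lower level for 22 of the 29 (75.9%, against 30.7% of 10875 genes), and 10 of these 22 were higher in HCT116. Among all genes, 3336 were lower in both HT29 and SW480, and 1045 of these were higher in HCT116. With a trend over GC content and length removed from the ratios, the count of members lower in both HT29 and SW480 was 21 (72.4% against 28.5%). All 3 lines had a lower level for 12 of the 29 (41.4% against 21.1% of all genes), and with that trend removed for 14 (48.3% against 19.1%). As measured, the 12 were CDH1, EPCAM, CLDN3, CLDN12, TJP1, TJP3, F11R, CRB3, PARD6B, DSP, DSG2 and ESRP1. The counting interval crossed 100% of control for CRB3 in every line, for TJP3 in HCT116 and for CLDN3 and F11R in HT29. KRT18 and MARVELD3 were higher in all 3, but the interval crossed 100% for both in SW480 (100.4% and 100.8% of control) and for MARVELD3 in HT29 (106%).

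Most of these differences were small in HT29. At least a 2-fold ratio with at least 5 CPM in the higher library was reached by 1 of 29 epithelial members downward and 0 upward in HT29, where the share of all genes was 6.17% downward and 3.74% upward. SW480 had 9 members 2-fold lower and 0 higher, where the share of all genes was 7.36% downward and 4.98% upward. HCT116 had 7 lower and 9 higher, where 28.8% of all genes were lower and 26.8% higher by that measure. The HCT116 counts are thus close to the share of all genes.

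**Figure D3:**
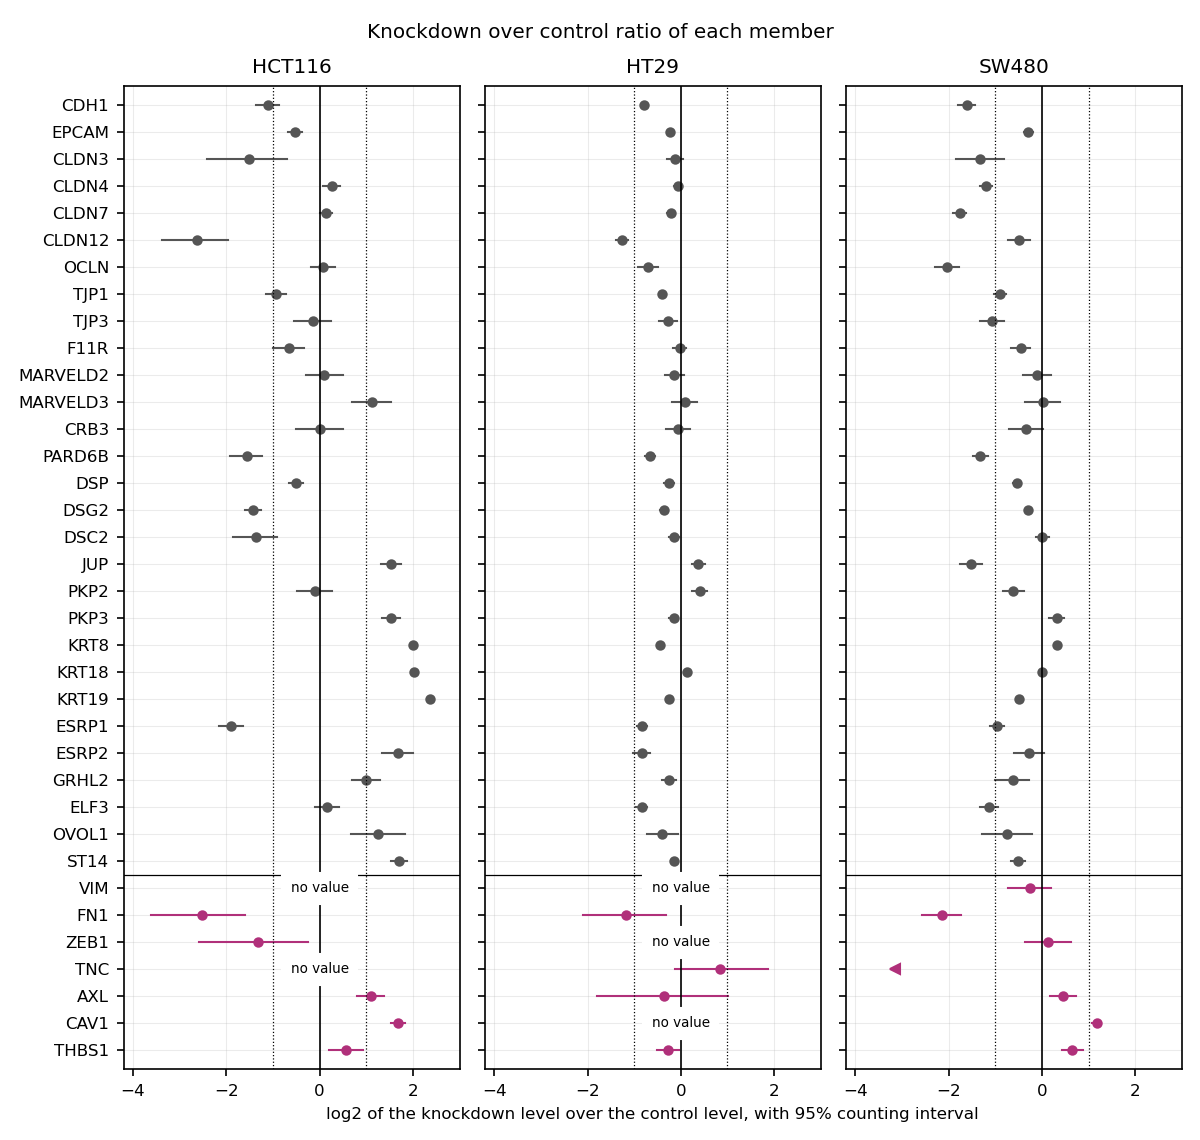
Log2 of the knockdown level over the control level for each member in each line, with the 95% counting interval; grey marks epithelial and pink mesenchymal members, dotted lines mark 2-fold, "no value" marks a blank, and the triangle is the upper bound for TNC in SW480, with 0 reads in the knockdown. Most epithelial points lie left of 0 in HT29 and SW480, and they spread to both sides in HCT116.

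Of the 9 epithelial members 2-fold lower in SW480, 5 were tight junction genes, where 4 claudins and 6 other tight junction genes were among the 29 listed. Whether 5 of 9 exceeds that base was not tested. OCLN, the membrane protein occludin, stood at 15.6 RPKM in the control and 3.74 in the knockdown of SW480 (24.4% of control, 20.3 to 29.2), at 8.60 and 5.27 in HT29 and at 13.2 and 13.7 in HCT116. The 2 lines other than HCT116 were lower, and without HCT116 the limma estimate was -1.33 with an adjusted p of 0.0431, against -0.85 ± 0.46 with an adjusted p of 0.41 over all 3. It was -0.28 (adjusted p = 0.88) without SW480 and -0.26 (adjusted p = 0.82) with the GC and length trend removed. CLDN7 stood at 29.4% of control in SW480 (26.7 to 32.3), CLDN4 at 43.4% (39.9 to 47.2) and CLDN3 at 40.0% (27.9 to 56.8). In HT29 these 3 claudins stood between 86.3% and 95.3%. CLDN3 had 16.9 and 5.87 RPKM in HCT116, 54.2 and 49.5 in HT29 and 15.03 and 5.91 in SW480, with an estimate of -0.93 ± 0.45 (limma adjusted p = 0.38), or -0.69 without HCT116 (adjusted p = 0.29). TJP3, a scaffold of the tight junction, stood at 47.5% in SW480 and 82.5% in HT29, and its relative TJP1 at 53.7% and 76.1%. F11R, an adhesion molecule of the junction, stood at 72.7% and 98.0%. MARVELD2, which seals corners where 3 cells meet, stood at 92.8% and 91.0%, with both intervals across 100%.

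Desmosome genes did not share a direction. JUP, or plakoglobin, which links cadherins to filaments, was higher in the knockdown library of HCT116 and lower in that of SW480. Its levels were 18.1 RPKM in the control and 51.4 in the knockdown of HCT116, 21.2 and 27.5 in HT29 and 26.8 and 9.13 in SW480. This gave 287% of control (247 to 333), 130% (117 to 144) and 34.6% (29.4 to 40.8). Of the desmosomal cadherins, DSG2 stood at 37.1%, 77.5% and 81.3% of control in HCT116, HT29 and SW480, and DSC2 at 38.8%, 90.6% and 100.6%. With the GC and length trend removed, DSC2 turned to log2 ratios of 0.53 in HCT116 and 0.44 in HT29. DSG2 then had a log2 ratio of -0.33 in HCT116 instead of -1.43. DSP, the plaque protein desmoplakin, stood at 70.0%, 84.0% and 68.5%. Of the plakophilins, which cross-link the plaque, PKP3 was higher in SW480 (124%) and PKP2 lower (65.4%), and in HT29 PKP2 was higher (133%) and PKP3 lower (89.9%).

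KRT8 had 487 RPKM in the control and 1930 in the knockdown of HCT116, 1756 and 1293 in HT29 and 811 and 991 in SW480. All 3 keratins were higher in the HCT116 knockdown than in its control, at 401% (KRT8), 408% (KRT18) and 511% (KRT19). In HT29 and SW480 they stood between 70.5% and 124% of control. The epithelial members as a whole summed to 2586 RPKM in the HCT116 control and 8349 in its knockdown, but without the keratins to 874 and 819. All listed genes together summed to 367786 RPKM in that control and 790818 in that knockdown. The epithelial share of this sum was 0.70% in the control and 1.06% in the knockdown.

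Among the factors that hold the epithelial programme, ELF3, an epithelial ETS factor, stood at 55.8% of control in HT29 and 45.3% in SW480, and at 112% in HCT116. ESRP2, the paralogue of ESRP1, stood at 55.8%, 82.6% and 318% in the same order. GRHL2 had 7.78 and 15.4 RPKM in HCT116, 17.0 and 14.2 in HT29 and 5.26 and 3.33 in SW480. OVOL1, a repressor of mesenchymal genes, stood at 76.1% in HT29, 59.5% in SW480 and 239% in HCT116. ST14 had 26.9 and 86.1 RPKM in HCT116, 92.7 and 83.5 in HT29 and 42.3 and 29.1 in SW480. For these 5 genes the knockdown library was the higher one in HCT116 and the lower one in HT29 and SW480, within counting error for ELF3 in HCT116 and ESRP2 in SW480. With the GC and length trend removed, the log2 ratio in HCT116 turned to -0.80 for ELF3 and was 0.04 for OVOL1, 0.31 for ST14 and 0.37 for ESRP2. GRHL2 changed little, from 0.99 to 0.86.

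In HCT116 the direction of an epithelial member went with its transcript GC content. Of the 14 members at 55% GC or more, 11 were higher under BZW2 shRNA, with a median log2 ratio of 1.37, against 1.17 for all genes of that GC class. Of the 15 members under 55%, 4 were higher, with a median of -0.65 against -0.62 for all genes. In HT29 the median was -0.18 in the higher and -0.25 in the lower GC class, against 0.20 and -0.07 for all genes. In SW480 it was -0.62 and -0.54, against -0.06 and 0.0037. With the GC and length trend removed, 3 epithelial members instead of 9 were at least 2-fold higher in HCT116, where the share of all genes went from 26.8% to 16.6%. The 3 were KRT18 and KRT19, which were among the 9, and OCLN, which was not. The log2 ratio of OCLN in HCT116 went from 0.07 to 1.52. The count of epithelial members 2-fold lower was 7 both times, where the share of all genes went from 28.8% to 17.1%. The 4 genes in common were CDH1, CLDN3, CLDN12 and ESRP1. CLDN7, CRB3 and TJP3 were 2-fold lower only with the trend removed, and DSC2, DSG2 and PARD6B only as measured. Removal of the trend turned the sign of 6 members in HCT116 (CLDN4, CLDN7, DSC2, PKP2, ELF3 and ZEB1), 2 in HT29 (F11R and DSC2) and 2 in SW480 (MARVELD3 and KRT18). JUP then had a log2 ratio of 0.16 in HCT116 instead of 1.51, and -1.38 in SW480 instead of -1.52. KRT19 had 1.24 in HCT116 instead of 2.35. The part of GC content or RNA handling in these ratios was not tested.

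**Figure D4:**
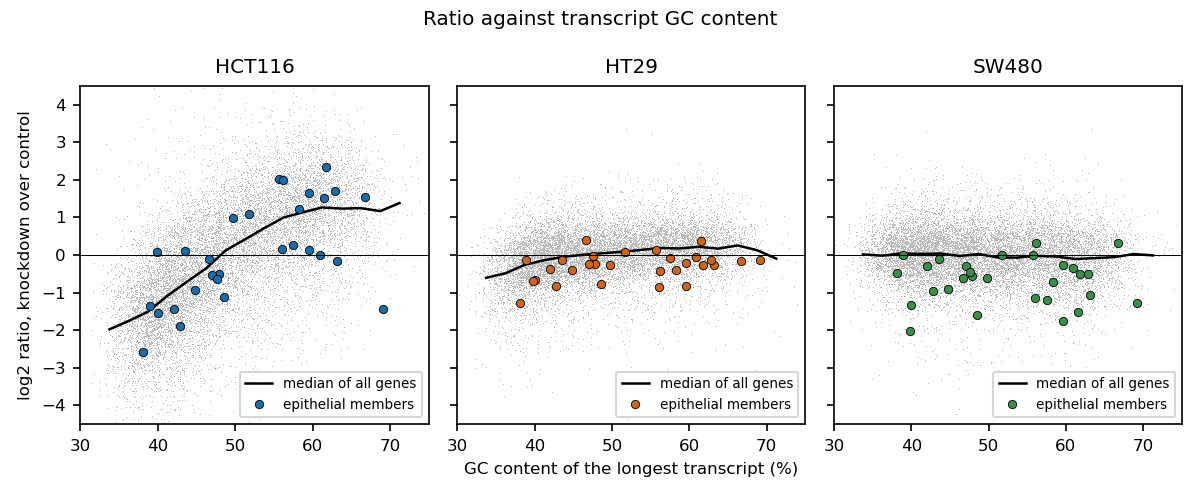
Log2 ratio of knockdown over control against GC content of the longest transcript, for all listed genes (grey; those beyond ±4.5 are not drawn) and the 29 epithelial members (coloured), with the median of all genes in bins of GC content as a line. The line climbs with GC content in HCT116 and lies near 0 in SW480, where the epithelial members lie mostly below it.

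The other mesenchymal members differed in direction. CAV1 was at least 2-fold higher in both lines where it was listed, from 39.0 to 123.4 RPKM in HCT116 (320% of control, 289 to 355) and from 78.9 to 174.6 in SW480 (225%, 211 to 240). AXL had 8.997 and 18.9 RPKM in HCT116, 0.27 and 0.21 in HT29 and 6.79 and 9.06 in SW480. Its knockdown library was higher in HCT116 and SW480, at 213% and 136% of control, and the HT29 value rests on 12 and 9 reads. The estimate over lines was 0.43 ± 0.47 (limma adjusted p = 0.65), or 0.08 without HCT116 (adjusted p = 0.94). THBS1 had 4.60 and 6.73 RPKM in HCT116, 4.94 and 4.08 in HT29 and 6.16 and 9.49 in SW480, with an estimate of 0.35 ± 0.40 (limma adjusted p = 0.66), or 0.22 without HCT116 (adjusted p = 0.74). For AXL and THBS1 the control and knockdown groups overlapped.

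ZEB1 had 1.71 RPKM in the control and 0.68 in the knockdown of HCT116, from 64 and 8 reads (40.3% of control, 16.7 to 84.2). With the GC and length trend removed its log2 ratio there turned from -1.22 to 0.40. In SW480 it had 1.89 and 2.02 RPKM (108%, 77.2 to 153), a difference not detectable at this depth. VIM had 5.67 and 4.63 RPKM in SW480 (83.1%, 60.3 to 115), also within counting error. TNC had 0.21 and 0.38 RPKM in HT29, from 15 and 26 reads (180%, 91.9 to 366). In SW480 TNC had 28 reads in the control and 0 in the knockdown library, for which the upper limit of the interval is 11.3% of control. In SW480 the matrix genes FN1 and TNC were thus lower, the matrix gene THBS1 was higher (157%, 135 to 184), as were CAV1 and AXL, and VIM and ZEB1 lay within counting error.

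Related genes outside the list, grouped by function, were counted the same way. No gene of these lists was at least 2-fold different in the same direction in all 3 lines. Of 43 further junction and polarity genes, 35 had a row, and 25 of 32 listed in SW480 were lower in its knockdown library (6 by 2-fold, where the share of all genes was 7.36%, and 0 higher by 2-fold), with a median of -0.55. In HT29 13 of 30 were lower, with a median of 0.04 and 0 beyond 2-fold, and in HCT116 16 of 33 were lower, with 11 lower and 7 higher by 2-fold, where the shares of all genes were 28.8% and 26.8%. Of 26 further epithelial genes, 12 of 16 listed in SW480 and 9 of 17 in HT29 were lower, with medians of -0.69 and -0.06. Of 37 further mesenchymal genes, 16 of 22 were lower in SW480 and 11 of 15 in HT29, with medians of -0.52 and -0.26. Of 26 genes of the TGF-beta pathway, a known inducer of mesenchymal genes, 21 of 24 were lower in SW480 and 9 of 23 in HT29, with medians of -0.42 and 0.13. In HCT116 6 of 15 of the further epithelial, 11 of 23 of the mesenchymal and 13 of 24 of the TGF-beta genes were lower, with medians of 0.25, 0.01 and -0.10. Among genes listed in all 3 lines, 9 of 13 further mesenchymal genes were lower in both HT29 and SW480 (69.2%). The same held for 11 of 29 further junction and polarity genes (37.9%) and 5 of 14 further epithelial genes (35.7%). It held for 6 of 23 TGF-beta genes (26.1%), against 75.9% of the epithelial members and 30.7% of all genes. In SW480 the further epithelial, further mesenchymal and TGF-beta lists thus had medians below that of all genes, and none of these counts was tested. The 7 mesenchymal members themselves had a median of 0.11 there, against -0.01 for all genes.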

How the data were processed

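The deposited table holds 1 normalised signal per gene and library, which the authors made by dividing gene reads by a size factor set within each line. Per the submitters' processing notes, bcl2fastq 2.17, STAR 2.5.2b, DESeq and GRCh38 were used; for the gene counter, annotation and strandedness, nothing is given in the sources used here. Whole reads were recovered for 100% of values within 0.1 read, with the smallest value of the SW480 control taken as 2 reads. The 19 repeated identifiers were left out. Because the table held normalised values and not counts, limma 3.58.1 (R 4.3.3) was fitted to log2 of value plus a pseudocount of 1, with line and treatment as terms, over 10875 genes (2 residual degrees of freedom), two-sided, which understates the fold of low genes. The line pairs the libraries: after group means were removed, those of a line correlated at 0.28 (HCT116), 0.75 (HT29) and 0.45 (SW480), while the HCT116 control correlated at 0.38 with the SW480 knockdown. Log2 ratios within a line used TMM-scaled CPM of edgeR 4.0.16 with a prior count of 2, and RPKM used TMM over the 6 libraries. DESeq2 1.42.0 and edgeR ran on recovered reads as alternatives. Transcript length and GC content came from GENCODE on GRCh38. The labels name no separate cultures within a line, so p-values measure the spread among these libraries. Tests were checked on simulated data. Members and lists were chosen with earlier results of these data known. Named in full were the 5 members of smallest p in each class, those at least 2-fold the same way in every line with values or opposite in 2 lines, those blank in a line, and the 5 of widest control range in each class.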

Additional observations from a re-analysis of the deposited data

Results flagged for a closer look

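JUP differed in direction between lines. Its log2 ratio was higher in HCT116 than in SW480 by 3.03, with the knockdown library above the control in HCT116 (287% of control) and below it in SW480 (34.6%). With 1 library per line and treatment this difference was not tested. After removal of the GC and length trend the ratios were 0.16 in HCT116 and -1.38 in SW480. The HCT116 ratio was then small and has no interval, so its sign is uncertain. The part of GC content in the difference was not tested.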

How the results depend on the processing

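Over the 3 lines, the counts of genes lower and higher were 0 and 0, and they became 134 and 110 in DESeq2 and 2 and 0 with the GC and length trend removed under the replicate block; without the replicate block they stayed 0 and 0. Leaving out 1 line gave between 27 and 151 lower and between 30 and 187 higher (151 and 187 without HCT116, 27 and 30 without HT29, 93 and 44 without SW480). Among members CDH1, OCLN and FN1 were called without HCT116 and FN1 in DESeq2. Without HT29, and without SW480, 0 members were called. Scaling by total reads moved the median log2 ratio of epithelial members in HCT116 to -0.25, where it moved the median of all genes by -0.31. With the GC trend removed, 3 epithelial members were 2-fold higher in HCT116, of which OCLN was not 2-fold higher as measured, and 0 were 2-fold lower in HT29. A limit of 1.5-fold gave 7 lower in HT29 and 14 in SW480. The share of all genes at that limit is not given here, so these 2 counts cannot be set against it. Between HT29 and HCT116, scaling by total reads called 134 genes higher and 157 lower, with 0 members higher; leaving out 1 library gave 44 to 3015 higher and 75 to 2805 lower, with 0 to 8 and 1 to 6 members. Between SW480 and HCT116 these ranges were 0 to 2929 and 0 to 2618 genes, with 0 to 4 and 0 to 12 members. Between SW480 and HT29, scaling by total reads called 150 and 79 genes, with 1 member higher and 0 lower; leaving out 1 library gave 74 to 1707 and 24 to 1810 genes, with 1 to 5 and 0 to 9 members. There the members lower were 1 in edgeR and 0 with a prior count of 0.5. The highest gene counts of these 3 contrasts came without the HCT116 control library, and the cause was not tested. No sign changed among the estimates over lines of ESRP1, CDH1, PARD6B, CLDN12, CLDN3, OCLN, FN1, AXL and THBS1, or among the 6 member calls between lines. Among members, depth limits values from under 30 reads in a library, which are those of AXL, FN1 and TNC in HT29, of ZEB1, FN1, CLDN3 and CLDN12 in HCT116 and of TNC in SW480.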
